A study of Homo sapiens with 6 samples.

Results

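The 10 genes described here encode the cyclins, cyclin-dependent kinases (CDKs), the inhibitor and the tumour suppressor that control passage through the G1 phase of the cell cycle: CCND1, CCND2, CCND3, CCNE1, CCNE2, CDK2, CDK4, CDK6, CDKN1B and RB1. They were fixed by gene symbol, with earlier results of these data known. All 10 were found by Ensembl identifier among the 20042 genes of the count table. RNA was sequenced from MDA-MB-231, a human breast cancer cell line, after transfection with ERBBride-targeting siRNA-1 (siRNA-1, 3 libraries; genotype label ERBBride knock down) or with a control siRNA (siCTRL, 3 libraries; genotype label WT). An siRNA (small interfering RNA) is a duplex that directs the breakdown of matching transcripts, and the series title concerns an lncRNA (long non-coding RNA), EGFR stability and cell fitness. ERBBride itself was not analysed here, so the depth of the knockdown is unknown. No time after transfection or siRNA dose was given in the labels, and only 1 siRNA against ERBBride was analysed here. The labels call the libraries of a group biological replicates without saying how the cultures were separated. The p-values therefore weigh a group difference against the variation between these libraries only.

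D-type cyclins are made in response to growth signals and activate CDK4 and CDK6. These kinases phosphorylate the retinoblastoma protein (RB1), which otherwise holds E2F transcription factors inactive. Released E2F factors drive the genes of DNA replication and the E-type cyclins, which activate CDK2 and complete the phosphorylation of RB1, while p27, the product of CDKN1B, binds and blocks cyclin E with CDK2. Inhibitors of CDK4 and CDK6 are used against breast cancer, and their action requires RB1.

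Total counts per library lay between 12813706 and 15014434, and a count of 3 corresponded to at most 0.233 counts-per-million (CPM) in any library, a limit that covers counting error only. Levels below are CPM after TMM scaling (trimmed mean of M values), each mean has its SD over the 3 libraries of a group, and a log2 fold change compares siRNA-1 with siCTRL. The library siCTRL 2 stood apart from the other controls: counts differed between siCTRL 1 and siCTRL 2 with a chi-square of 11.3 per degree of freedom, and with 11.4 between siCTRL 2 and siCTRL 3, against 2.27 between siCTRL 1 and siCTRL 3 and 2.12 to 2.39 within siRNA-1. Markers of MDA-MB-231 and basal-like cells were abundant, with summed levels of 5313 to 5499 CPM in siRNA-1 and 9807 to 10381 CPM in siCTRL libraries. All 10 of these markers fell in siRNA-1 cells, among them MSN (log2 fold change -2.43), TGFBI (-1.38) and PLAU (-1.62). Over all 12440 genes tested 31.0% were called lower, a share to set beside these and the luminal markers. The part of these falls in the results below was not tested. The luminal list summed to 880 to 919 CPM in siRNA-1 and 1216 to 1268 CPM in siCTRL libraries. Within it, PGR had 0 counts in every library and ESR1 averaged at most 0.115 CPM in a group. GATA3 (-1.35), KRT18 (-0.56) and SPDEF (-1.67) were among the 7 tested members, all of which fell. CD3E and HBB of the haematopoietic list, CDH5 of the endothelial list and DCN of the fibroblast list had 0 counts in every library. The summed haematopoietic list reached 7.68 to 9.21 CPM in siRNA-1 and 16.1 to 20.6 CPM in siCTRL libraries, mostly CD14 (-1.17), with LYZ at -2.84. The endothelial list summed to 8.38 to 10.8 against 15.7 to 17.8 CPM, with PECAM1 at -0.86 and KDR at -0.74. The fibroblast list summed to 28.6 to 33.0 in siRNA-1 against 23.3 to 26.6 CPM in siCTRL libraries, with COL1A1 at 1.79, LUM at -1.15 and PDGFRB, which did not pass, at -0.30 (adjusted p = 0.0702, and 0.0389 without siCTRL 3).

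Within the G1 machinery, siRNA-1 cells had more CCND3, CCNE1 and CDK2 and less CDK6 and CCND1, with a small rise of RB1. CCND3 rose 2.20-fold, CCNE1 1.79-fold, CDK2 1.75-fold and RB1 1.19-fold, while CDK6 fell 2.14-fold and CCND1 fell 1.21-fold. CDK4 rose 1.13-fold at the edge of the threshold, a call that did not hold when any single library was left out. CCND2, CCNE2 and CDKN1B did not pass the test. In RNA from whole cultures, fewer cells in a given state and less RNA per cell cannot be told apart. In all, 7 of the 10 genes passed (adjusted p under 0.05, edgeR quasi-likelihood test), 5 upwards and 2 downwards. Over all 12440 genes tested 62.5% passed, 31.5% higher and 31.0% lower in siRNA-1 cells, so the share among these 10 is near the background. The groups did not overlap at 7 of the 10 genes and at 67.6% of all genes tested. The median log2 fold change of the 10 genes was 0.16, against 0.01 for all genes tested.

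**Figure D1:**
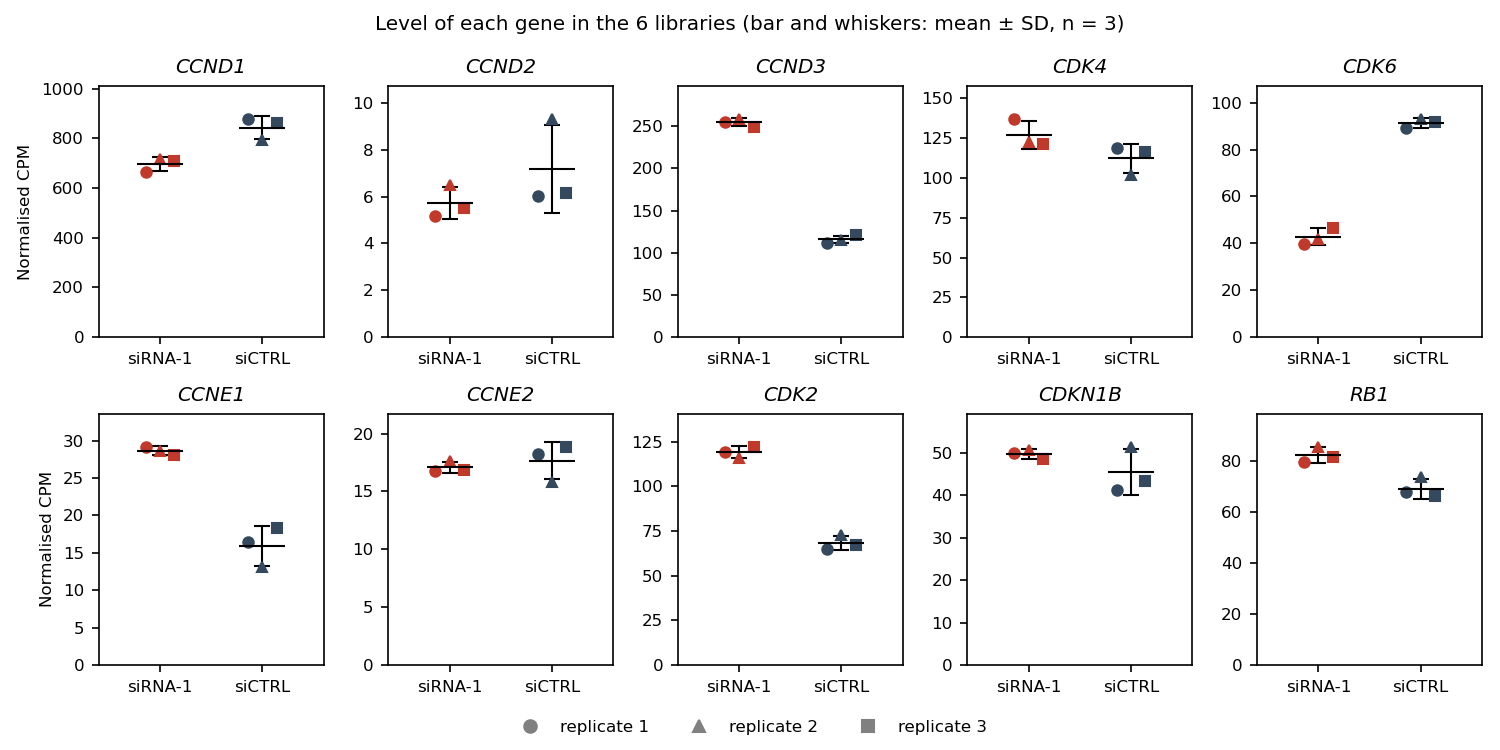
Normalised CPM of each of the 10 genes (vertical axis, from 0) in siRNA-1 and siCTRL libraries, with a point per library, its shape giving the replicate number, and the mean ± SD of 3 libraries as bar and whiskers. CCND3, CCNE1 and CDK2 are higher and CDK6 and CCND1 lower in all siRNA-1 libraries, and the groups overlap for CCND2, CCNE2 and CDKN1B.

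The D-type cyclins are the growth-factor-responsive partners of CDK4 and CDK6. CCND1 (ENSG00000110092), the cyclin D1 gene, spans chr11:69641087-69654474 (GRCh38, plus strand). CCND1 had 664, 717 and 710.3 CPM in siRNA-1 replicates 1 to 3, against 879, 792 and 860.4 CPM in siCTRL replicates 1 to 3. Every siRNA-1 library lay below every control library, and siCTRL 2 was the lowest control. The means were 697 ± 28.8 CPM in siRNA-1 and 844 ± 45.9 CPM in siCTRL (log2 fold change -0.28, 95% interval -0.40 to -0.15, adjusted p = 0.00115). The opposite strand of the locus holds exons of LTO1 that overlap 10.3% of the exonic bases of CCND1, and LTO1 itself rose (log2 fold change 0.37, 39.9 ± 1.54 against 30.9 ± 2.19 CPM).

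CCND3 (ENSG00000112576), the cyclin D3 gene, spans chr6:41934933-42050357 (minus strand). It had 255, 259 and 249.5 CPM in siRNA-1 replicates, against 112, 115 and 121 CPM in siCTRL replicates. The libraries within each group were close to one another and the groups were far apart. CCND3 had the smallest adjusted p of the 10 genes (log2 fold change 1.14, 95% interval 1.02 to 1.25, adjusted p = 1.09e-08), and its rise was the 170th largest among all genes tested. Without siCTRL 2 its log2 fold change was 1.12.

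CCND2 (ENSG00000118971), the cyclin D2 gene at chr12:4273772-4305350 (plus strand), had the lowest level of the 10 genes in both groups, with 74 to 120 counts per library. It had 5.17, 6.49 and 5.52 CPM in siRNA-1 replicates, against 6.02, 9.32 and 6.17 CPM in siCTRL replicates. The groups overlapped, and siCTRL 2 was the highest library. The test was not passed (log2 fold change -0.32, 95% interval -0.73 to 0.10, adjusted p = 0.164), and without siCTRL 2 the log2 fold change was -0.10 (adjusted p = 0.612). Exons of the protein-coding gene AC008012.1 on the same strand overlap 13.8% of the exonic bases of CCND2, so reads there cannot be assigned with certainty.

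Because the D-type cyclins share partner kinases, their levels were also compared per kilobase of annotated exon. CCND1 provided 75.5%, 76.5% and 77.1% of the summed D-type cyclin level in siRNA-1 replicates, against 90.0%, 88.6% and 89.1% in siCTRL replicates. CCND3 provided 24.1%, 23.0% and 22.5% in siRNA-1 replicates, against 9.53%, 10.7% and 10.4% in siCTRL replicates, and CCND2 stayed under 1% in every library. Cyclin D1 transcripts thus remained the majority in each library while the share of cyclin D3 was larger in every siRNA-1 library. The mean share of CCND1 was 76.4% ± 0.811 in siRNA-1 and 89.3% ± 0.726 in siCTRL (two-sided exact permutation p = 0.1, the smallest that 3 against 3 libraries allow). The summed level was 189 ± 6.10 in siRNA-1 and 196 ± 9.28 CPM per kilobase in siCTRL, and its groups overlapped (two-sided exact permutation p = 0.3).

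**Figure D2:**
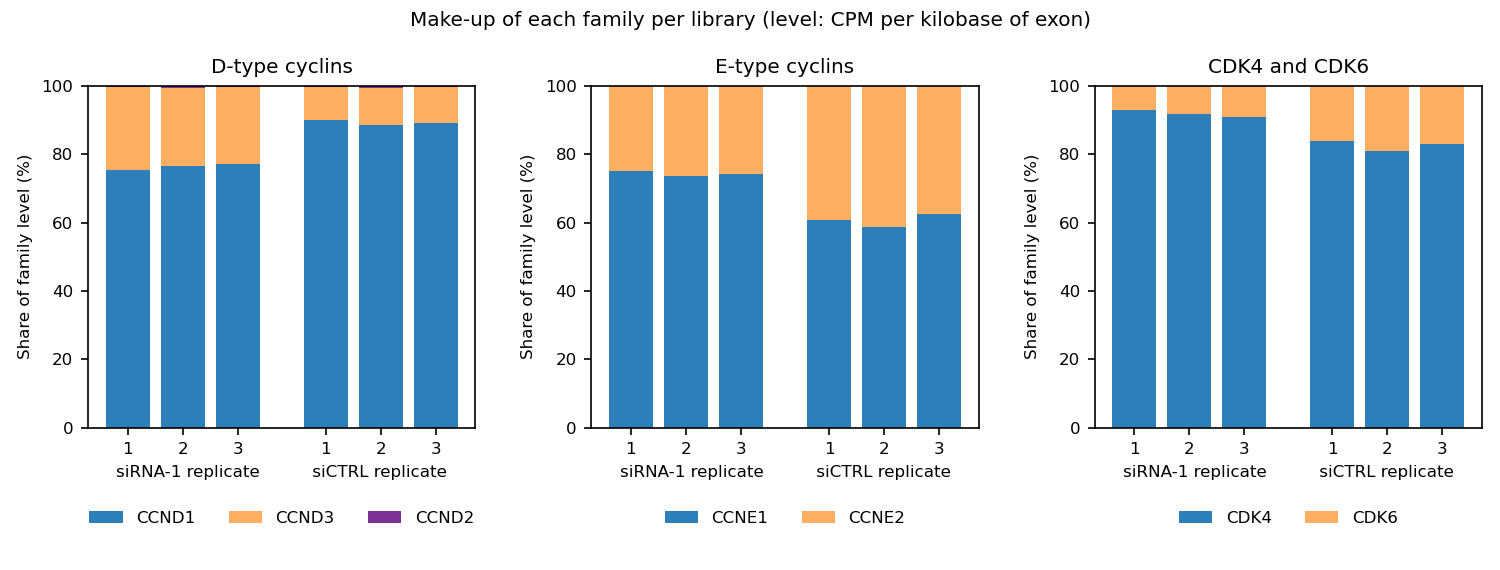
Share of each gene (vertical axis, percent of the summed CPM per kilobase of exon) within the D-type cyclins, the E-type cyclins and the pair CDK4 and CDK6, in each siRNA-1 and siCTRL library. CCND1 makes up 75.5% to 77.1% of its family in siRNA-1 and 88.6% to 90.0% in siCTRL libraries, CCNE1 73.7% to 75.0% against 58.7% to 62.5%, and CDK4 91.0% to 93.0% against 80.9% to 83.8%; the share of CCND2 is too small to see.

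CDK6 (ENSG00000105810), one of the kinases that D-type cyclins activate, spans chr7:92604921-92836594 (minus strand). It had 39.7, 41.9 and 46.7 CPM in siRNA-1 replicates, against 89.1, 93.1 and 91.8 CPM in siCTRL replicates. All siRNA-1 libraries were at about the same low level and none came near a control library. CDK6 fell 2.14-fold (log2 fold change -1.09, 95% interval -1.25 to -0.94, adjusted p = 1.17e-07), the largest fall among the 10 genes, and without siCTRL 2 the log2 fold change was -1.09. Its longest annotated 3' untranslated region, of 10219 bases, was longer than those of the other 9 genes, which ranged from 531 (CCNE1) to 5341 bases (CCND2).

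CDK4 (ENSG00000135446), the other kinase of D-type cyclins, spans chr12:57747727-57756013 (minus strand). It had 137, 122 and 121 CPM in siRNA-1 replicates, against 119, 102 and 116 CPM in siCTRL replicates. The groups did not overlap, but the gap between them was small beside the spread within each. The mean was 127 ± 8.81 CPM in siRNA-1 and 112 ± 8.93 CPM in siCTRL (log2 fold change 0.18, 95% interval 0.02 to 0.33, adjusted p = 0.0496). With each library left out in turn the adjusted p of CDK4 was 0.214 without siRNA-1 replicate 1, 0.0663 without siRNA-1 replicate 2, 0.0565 without siRNA-1 replicate 3, 0.0554 without siCTRL 1, 0.0815 without siCTRL 2 (log2 fold change 0.10) and 0.0674 without siCTRL 3. Exons of TSPAN31 on the opposite strand overlap 43.2% of the exonic bases of CDK4, and TSPAN31 had 16.3 ± 0.945 CPM in siRNA-1 and 16.4 ± 0.505 CPM in siCTRL (log2 fold change -0.01, adjusted p = 0.955). Per kilobase of exon, CDK4 made up 92.0% ± 1.05 of the summed CDK4 and CDK6 level in siRNA-1 and 82.6% ± 1.47 in siCTRL libraries (two-sided exact permutation p = 0.1, the smallest possible). Counted without exon length, the difference in this share was 19.7 percentage points in place of 9.39. The sum of both kinases was 43.6 ± 2.56 in siRNA-1 and 42.9 ± 2.68 CPM per kilobase in siCTRL, with overlapping groups (two-sided exact permutation p = 0.9).

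Sequences are shown for CCND3, CCNE1, CDK6 and CDK4. An earlier look at these same data had picked the 7-base sequence GCTCACT as enriched in the 3' untranslated regions of genes that fell, so its presence is a description and not separate evidence. Of the 10 genes only CDK6 carried it, in 1 copy, in the longest 3' untranslated region that GENCODE 29 gives. It was carried by 18.8% of the 12261 tested genes whose 3' untranslated region reached 50 bases, by 11.3% of genes that rose, by 29.4% of genes that fell, and by 85.5% of the 124 genes with a region at least as long as that of CDK6. The site lies at chr7:92613582-92613608 on the minus strand of GRCh38, 1542 bases into the region, and is shown with 10 bases on each side and the 7 bases in capitals.
CDK6 3' site: agtgccttgtGCTCACTcctgctctct

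The RefSeq promoter table (GRCh38.p14) held windows for 6 of the 10 genes and none for CCND1, CCND2, CCNE2 or CDK2. The 250 bases before a start are shown for CCND3 and CCNE1, the largest rises, and for CDK6, the largest fall. Each GC box (GGGCGG on either strand, a binding sequence of SP1) is in capitals. The CCND3 windows are chr6:42048689-42048938 and chr6:41941809-41942058 on the minus strand, those of CCNE1 and CDK6 are chr19:29811741-29811990 on the plus strand and chr7:92836574-92836823 on the minus strand.
CCND3 distal start: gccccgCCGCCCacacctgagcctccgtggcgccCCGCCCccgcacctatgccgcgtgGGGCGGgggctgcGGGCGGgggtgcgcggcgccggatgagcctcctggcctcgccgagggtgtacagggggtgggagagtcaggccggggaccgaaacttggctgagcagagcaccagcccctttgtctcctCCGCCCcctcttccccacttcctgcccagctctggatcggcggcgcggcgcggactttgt
CCND3 middle start: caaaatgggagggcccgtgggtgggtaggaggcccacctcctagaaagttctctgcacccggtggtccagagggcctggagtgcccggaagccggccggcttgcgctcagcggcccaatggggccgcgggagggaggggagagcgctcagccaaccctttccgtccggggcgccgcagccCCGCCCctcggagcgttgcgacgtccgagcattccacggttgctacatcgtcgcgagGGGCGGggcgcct
CCNE1: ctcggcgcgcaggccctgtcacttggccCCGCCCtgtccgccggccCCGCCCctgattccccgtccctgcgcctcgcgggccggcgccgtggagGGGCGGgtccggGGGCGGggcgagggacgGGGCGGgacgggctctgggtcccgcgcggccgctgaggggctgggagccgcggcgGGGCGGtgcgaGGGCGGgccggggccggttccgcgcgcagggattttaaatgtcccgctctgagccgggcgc
CDK6: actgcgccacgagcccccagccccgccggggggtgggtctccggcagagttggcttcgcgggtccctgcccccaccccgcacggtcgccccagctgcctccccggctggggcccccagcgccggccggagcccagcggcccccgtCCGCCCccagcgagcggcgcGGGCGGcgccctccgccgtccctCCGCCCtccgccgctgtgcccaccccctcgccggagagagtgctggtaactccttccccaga
GC boxes numbered 5 and 2 in these CCND3 windows, 7 in that of CCNE1, which rose, and 3 in the printed window of CDK6, which fell. They numbered 3 in the window of CDK4, printed below with its GC boxes unmarked. The windows of CDKN1B and RB1, not printed, held 1 and 0. Another window of CCND3, chr6:41939206-41939455, and another of CDK6, chr7:92833960-92834209, both on the minus strand and not printed, held 0 GC boxes. Of 34943 promoter windows of this length 42.5% held at least 1 GC box. None of the printed windows held an E2F sequence (TTTCCCGC, TTTCGCGC, TTTGGCGC or TTTGCCGC on either strand, present in 2.77% of windows) or an AP-1 sequence (TGACTCA on either strand, 4.22%). Only these exact letters were searched, so other forms of such sites, and sites outside the windows, would be missed. The window of CDK4, chr12:57752311-57752560 on the minus strand, held 3 copies of the E-box CACGTG, a sequence that MYC with MAX can bind and that 6.32% of windows held, shown in capitals.
CDK4: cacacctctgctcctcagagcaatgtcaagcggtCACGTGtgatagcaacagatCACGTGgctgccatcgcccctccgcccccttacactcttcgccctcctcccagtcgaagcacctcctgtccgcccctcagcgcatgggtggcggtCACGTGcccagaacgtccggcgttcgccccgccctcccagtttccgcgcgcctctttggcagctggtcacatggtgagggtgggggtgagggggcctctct
These matches describe letters in a window, and whether a factor binds there was not measured.

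E-type cyclins activate CDK2 at the passage into DNA synthesis. CCNE1 (ENSG00000105173), the cyclin E1 gene, spans chr19:29811898-29824308 (plus strand). It had 29.2, 28.6 and 28.0 CPM in siRNA-1 replicates, against 16.4, 13.0 and 18.3 CPM in siCTRL replicates. The siRNA-1 libraries were nearly alike, and siCTRL 2 was the lowest of the more scattered controls. CCNE1 rose 1.79-fold (log2 fold change 0.84, 95% interval 0.60 to 1.09, adjusted p = 3.9e-05), and without siCTRL 2 the log2 fold change was 0.71.

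CCNE2 (ENSG00000175305), the cyclin E2 gene, spans chr8:94879770-94896678 (minus strand). It had 16.8, 17.6 and 16.8 CPM in siRNA-1 replicates, against 18.2, 15.8 and 18.9 CPM in siCTRL replicates. The groups overlapped, with the lowest and the highest library both among the controls. The difference did not pass (log2 fold change -0.05, 95% interval -0.26 to 0.16, adjusted p = 0.679), and without siCTRL 2 the log2 fold change was -0.13 (adjusted p = 0.234). Exons of INTS8 on the opposite strand overlap 37.0% of the exonic bases of CCNE2, and INTS8 rose 2.08-fold (81.5 ± 2.00 against 39.3 ± 1.19 CPM, adjusted p = 4.99e-08). Whether HTSeq used strand is not stated, so reads of such overlapping exons may have been left out or assigned to either gene, and their part in these levels was not tested. Per kilobase of exon, CCNE1 made up 74.3% ± 0.676 of the E-type cyclin level in siRNA-1 and 60.7% ± 1.94 in siCTRL libraries (two-sided exact permutation p = 0.1, the smallest possible). The summed E-type level was 15.1 ± 0.251 in siRNA-1 and 10.3 ± 1.40 CPM per kilobase in siCTRL, with no overlap between groups (two-sided exact permutation p = 0.1).

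CDK2 (ENSG00000123374), the kinase of E-type cyclins, spans chr12:55966769-55972784 (plus strand). It had 119, 116 and 122 CPM in siRNA-1 replicates, against 65.2, 72.6 and 67.0 CPM in siCTRL replicates. Each siRNA-1 library lay well above each control. CDK2 rose 1.75-fold (log2 fold change 0.80, 95% interval 0.67 to 0.94, adjusted p = 4.27e-07), so that the kinase and its partner CCNE1 were both higher. The antisense gene AC025162.1 overlaps 14.5% of the exonic bases of CDK2 and the pigment gene PMEL 2.29%.

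**Figure D3:**
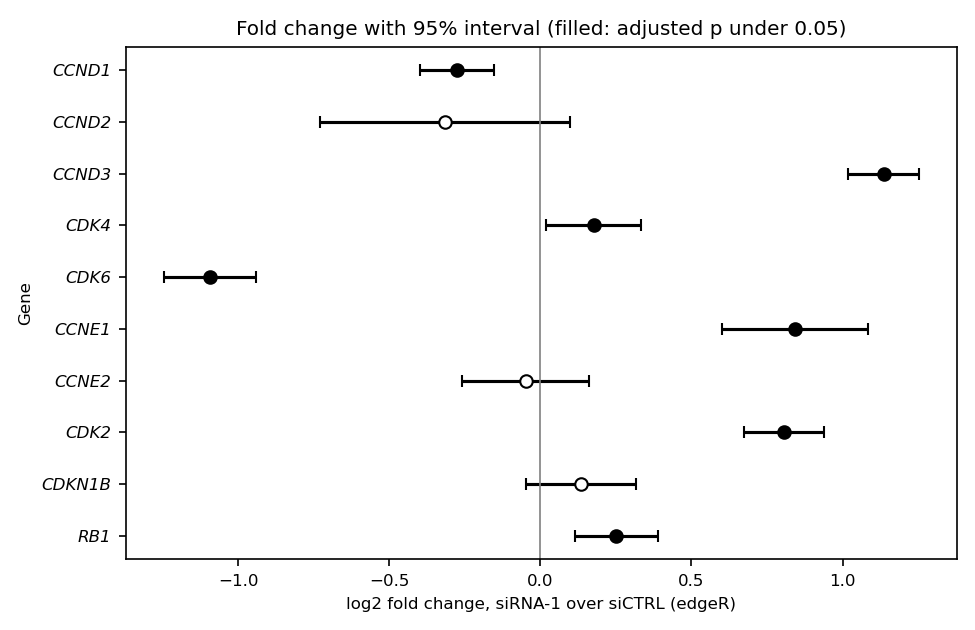
log2 fold change of siRNA-1 over siCTRL (horizontal axis) for each of the 10 genes with its 95% interval from edgeR, where filled points passed an adjusted p of 0.05. CCND3 and CDK6 lie at 1.14 and -1.09, CCNE1 and CDK2 at 0.84 and 0.80, and the other genes lie within 0.32 of 0.

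CDKN1B (ENSG00000111276), the gene of the inhibitor p27, spans chr12:12715058-12722371 (plus strand). It had 50.1, 50.7 and 48.5 CPM in siRNA-1 replicates, against 41.3, 51.6 and 43.5 CPM in siCTRL replicates. The groups overlapped only through siCTRL 2, the highest library of all. The difference did not pass (log2 fold change 0.13, 95% interval -0.05 to 0.32, adjusted p = 0.182), but without siCTRL 2 it did (log2 fold change 0.22, adjusted p = 0.00281), and without siCTRL 1 the log2 fold change was 0.06. The call for CDKN1B therefore rests on 1 control library. The protein p27 is largely set by degradation, and these values are RNA levels.

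RB1 (ENSG00000139687), the gene of the retinoblastoma protein, spans chr13:48303726-48599436 (plus strand). It had 79.4, 85.5 and 81.6 CPM in siRNA-1 replicates, against 67.6, 73.5 and 66.0 CPM in siCTRL replicates. The lowest siRNA-1 library lay above the highest control, siCTRL 2. RB1 rose 1.19-fold (log2 fold change 0.25, 95% interval 0.11 to 0.39, adjusted p = 0.00434), and without siCTRL 2 the log2 fold change was 0.28.

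Ordered by level per kilobase of exon, CCND1 was the most abundant of the 10 transcripts in both groups, with 144 ± 5.97 in siRNA-1 and 175 ± 9.50 CPM per kilobase in siCTRL. In siRNA-1 cells CCND3 (43.9 ± 0.807), CDK4 (40.1 ± 2.78), CDK2 (30.6 ± 0.823), CDKN1B (17.7 ± 0.406), RB1 (12.7 ± 0.483), CCNE1 (11.2 ± 0.234), CCNE2 (3.88 ± 0.108), CDK6 (3.49 ± 0.295) and CCND2 (0.800 ± 0.0957) followed. In siCTRL cells the order after CCND1 was CDK4 (35.5 ± 2.82), CCND3 (19.95 ± 0.791), CDK2 (17.5 ± 0.992), CDKN1B (16.2 ± 1.93), RB1 (10.7 ± 0.608), CDK6 (7.45 ± 0.167), CCNE1 (6.24 ± 1.04), CCNE2 (4.01 ± 0.363) and CCND2 (1.00 ± 0.260). Neighbours in this order were separated by their ranges except CCND3 with CDK4 and CCNE2 with CDK6 in siRNA-1 cells, and CDK2 with CDKN1B in siCTRL cells. CDK6 stood above CCNE1 in siCTRL cells and below CCNE2 in siRNA-1 cells. These levels depend on the annotated exon length, which was 12260 bases for CDK6 and 2550 bases for CCNE1.

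Many other genes followed the same pattern over the 6 libraries, so likeness to these genes is not particular. The gene with the highest Pearson correlation of log2 CPM over 6 libraries was CDR2 for CCND3 (r = 1.00), RHOT1 for CDK6 (r = 1.00), HNRNPAB for CCNE1 (r = 0.999), ANKRD33B for CDK2 (r = 0.999), KIAA1671 for CCND1 (r = 0.998) and PXDN for RB1 (r = 0.998). For CCND3, 1855 genes reached a correlation of 0.95, and for CDK6 1801. For the genes without a call the nearest were CEBPB for CCND2 (r = 0.994), MGAT4B for CCNE2 (r = 0.993) and MSRB3 for CDKN1B (r = 0.996), and TMEM216 stood nearest to CDK4 (r = 0.990). The points share libraries and the split into groups, so these values only describe.

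Beyond these 10, the G1 pathway was described by 9 lists of genes grouped by role, holding 133 other genes. Of the 129 tested, 62 were higher and 30 lower in siRNA-1 cells and 37 did not pass, with a median log2 fold change of 0.15. That is 71.3% passing, against the 62.5% of all genes tested. Higher genes made up 31.5% and lower genes 31.0% of all genes tested, for comparison with the counts of each list below. Some genes stand in more than 1 list, among them RBL1, RBL2, E2F1, E2F2, E2F4, E2F5 and TFDP1, so the counts of the lists are not separate from one another.

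Among the other CDK inhibitors, 2 of 5 tested genes were higher and 0 lower, with a median log2 fold change of -0.01. CDKN2C, which encodes the CDK4 and CDK6 inhibitor p18, rose 1.49-fold (60.6 ± 4.48 against 40.6 ± 4.71 CPM, adjusted p = 0.000133). CDKN2A and CDKN2B, which encode p16 and p15, had 0 counts in every library, which allows at most 0.210 CPM in a siRNA-1 and 0.233 CPM in a siCTRL library, and loss of the CDKN2A locus is known in this cell line. CDKN1A, the gene of p21, had 129 ± 4.29 CPM in siRNA-1 and 139.9 ± 12.5 CPM in siCTRL, a difference of -0.12 on the log2 scale that missed the threshold (adjusted p = 0.157), although without siCTRL 2 it fell (-0.20, adjusted p = 0.000138). CDKN3, a phosphatase gene that acts on CDK2, was at 0.18 (adjusted p = 0.0353), a call lost without siRNA-1 replicate 1 (0.0942), siRNA-1 replicate 3 (0.131), siCTRL 1 (0.169) or siCTRL 3 (0.0578). The count of rises in this list was then 1, and the count of falls was 1 without siCTRL 2.

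Of the RB1 relatives and the E2F and DP transcription factors, 3 of 12 were higher, 3 lower and 6 missed the threshold. Their median log2 fold change was -0.07, and 50% passed, against 62.5% of all genes tested. RBL2, which encodes the pocket protein p130, rose 1.91-fold, with 63.3, 60.7 and 62.8 CPM in siRNA-1 replicates against 30.4, 37.5 and 30.0 CPM in siCTRL replicates (adjusted p = 2.19e-06). TFDP2, a dimer partner of E2F factors, rose 1.86-fold (adjusted p = 5.59e-07). E2F5, an E2F that works with p130, rose 1.70-fold (adjusted p = 0.00077) and E2F2, an activating E2F, fell 1.81-fold (adjusted p = 0.000185). E2F1 had 129.7 ± 6.19 CPM in siRNA-1 and 121 ± 2.39 CPM in siCTRL, a log2 difference of 0.11 that missed the threshold (adjusted p = 0.122). RBL1, which encodes the pocket protein p107, was at -0.20 (adjusted p = 0.0180), a call lost without siRNA-1 replicate 1 (0.105), siRNA-1 replicate 2 (0.0519) or siCTRL 3 (0.0683). The third fall, of the repressor gene E2F8, was named after its value was seen (log2 fold change -0.30, adjusted p = 0.0354). The count of falls in this list was 1 without siRNA-1 replicate 1 or 2 and 6 without siCTRL 2.

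Genes that activate or restrain the kinases were higher at 6 of 9 genes and lower at 1 (median log2 fold change 0.51). In this list 77.8% passed, against 62.5% of all genes tested. CDC25A, the phosphatase that activates CDK2, rose 2.09-fold, with 76.8, 78.8 and 73.7 CPM in siRNA-1 replicates against 38.3, 30.3 and 41.0 CPM in siCTRL replicates (adjusted p = 1.59e-06). CDC37, the HSP90 cochaperone that loads CDK4 and other kinases, rose 1.42-fold, and WEE1, a kinase that inhibits CDKs, rose 1.59-fold. The 1 fall, of the cyclin H gene CCNH, named after its value was seen, was at -0.20 (adjusted p = 0.0466), and no gene of this list passed downwards without siRNA-1 replicate 1, siRNA-1 replicate 2, siCTRL 1 or siCTRL 3, each giving a count of 0.

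Genes for the degradation of G1 cyclins and p27 were higher at 12 of 17 tested genes and lower at 1 (median log2 fold change 0.33). Here 76.5% passed, against 62.5% of all genes tested. CKS2, a small CDK-binding protein gene, rose 1.79-fold (233 ± 7.07 against 130.3 ± 6.95 CPM, adjusted p = 2e-07) and CKS1B, the cofactor with which SKP2 recognises p27, rose 1.47-fold (adjusted p = 8.18e-06). AMBRA1, the substrate receptor for D-type cyclins, rose 1.51-fold (adjusted p = 1.42e-05), FBXW7, the receptor for cyclin E, rose 1.68-fold (adjusted p = 3.88e-05), and SKP2 rose 1.25-fold (adjusted p = 0.00187). The 1 fall, of the F-box gene FBXO4, named after its value was seen, was at -0.37 (adjusted p = 0.0471), and the count of falls was 0 without siRNA-1 replicate 2, siRNA-1 replicate 3 or siCTRL 3, 2 without siCTRL 1 and 3 without siCTRL 2.

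Targets of E2F at the start of DNA synthesis moved both ways, with 12 of 38 higher, 13 lower and 13 not passing (median log2 fold change -0.04). This list includes CCNE1 and CCNE2, and 65.8% of it passed, against 62.5% of all genes tested. CHEK1, a kinase of the replication checkpoint, had 52.6, 49.2 and 49.4 CPM in siRNA-1 replicates against 91.6, 94.4 and 93.3 CPM in siCTRL replicates (adjusted p = 1.54e-07). POLA1, the catalytic subunit of the DNA polymerase that makes primers, fell 2.09-fold (adjusted p = 1.68e-07), and MCM3, a subunit of the replicative helicase, fell 1.55-fold (adjusted p = 4.31e-07). These 3 were named for the smallest adjusted p of the list, and all fell. Among the 12 rises were DBF4 (log2 fold change 0.99, adjusted p = 7.07e-07) and ORC6 (0.54, adjusted p = 4.38e-05), named after their values were seen. Later cyclins were higher at 2 of 6 genes and lower at 1, so that 50% of that list passed. CCNA2, the cyclin A gene that follows cyclin E on CDK2, had 235 ± 1.18 against 159 ± 6.86 CPM (adjusted p = 2.53e-06), CCNB1, a mitotic cyclin gene, rose 1.42-fold, and CCNA1, a cyclin A gene best known from germ cells, fell 6.03-fold to 0.946 ± 0.386 CPM in siRNA-1, against 5.75 ± 1.89 CPM in siCTRL. CDK1 had 154 ± 9.38 CPM in siRNA-1 and 150.3 ± 19.7 CPM in siCTRL, a log2 difference of 0.03 that missed the threshold (adjusted p = 0.757). Without siCTRL 2 CDK1 passed (0.13, adjusted p = 0.0193) and 4 genes of that list were higher.

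**Figure D4:**
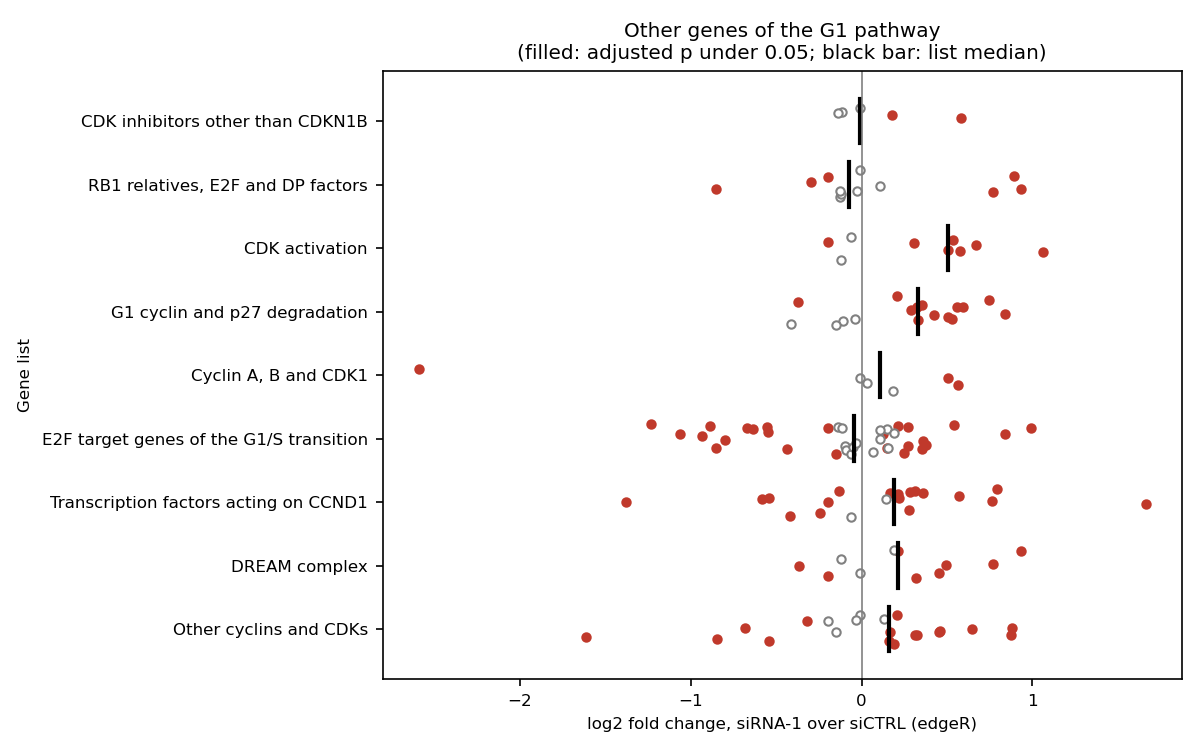
log2 fold change of siRNA-1 over siCTRL (horizontal axis) for the tested genes of 9 lists of the G1 pathway, with a point per gene, filled where it passed an adjusted p of 0.05, and a black bar at each list's median; vertical scatter within a list has no meaning. Medians range from -0.07 for RB1 relatives with E2F and DP factors to 0.51 for CDK activation, and every list holds genes on both sides of 0.

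Transcription factors that act on CCND1 passed at 18 of 20 genes, 11 higher and 7 lower (median log2 fold change 0.19). That share is 90%, against 62.5% of all genes tested. MYC had 127, 119 and 113 CPM in siRNA-1 replicates against 175, 165 and 183 CPM in siCTRL replicates (log2 fold change -0.54, adjusted p = 1.29e-05). JUN, a subunit of AP-1, fell (log2 fold change -0.58, adjusted p = 2.12e-06), and the early response gene EGR1 fell 2.61-fold (adjusted p = 1.09e-05). Other AP-1 genes, named after their values were seen, moved both ways. JUNB (0.79), FOSL2 (0.22), FOS (0.77) and FOSB (1.66) rose, FOSL1 (-0.42) fell and JUND (-0.06) did not pass. FOS and FOSB were scarce, averaging 2.70 and 2.18 CPM in siRNA-1. The DREAM complex represses cell cycle genes in resting cells. Of 11 tested genes in its list, which holds FOXM1 and DYRK1A beside subunits, 6 were higher and 2 lower (median log2 fold change 0.21). In the DREAM list 72.7% passed, against 62.5% of all genes tested. It was led by RBL2, FOXM1 (1.41-fold, adjusted p = 2.56e-05) and E2F5. FOXM1, an activator of mitotic genes, and DYRK1A (log2 fold change 0.32), a kinase gene named after its value was seen, were listed with the complex. Both are among the rises counted and neither is a subunit, so these counts are not those of the complex alone. The falls in the DREAM list were RBL1 and LIN52 (-0.37, adjusted p = 0.0172), a subunit of the complex named after its value was seen, and numbered 0 without siRNA-1 replicate 1 or siCTRL 3 and 1 without siRNA-1 replicate 2 or siCTRL 1. Of other cyclins and CDKs, 11 of 21 were higher and 5 lower (median log2 fold change 0.16), and 7 were higher without siRNA-1 replicate 2. Passing genes made up 76.2% of these, against 62.5% of all genes tested. Beside CDK19 the falls were CCNG2 (-0.54), CCNT2 (-0.68), CDK5 (-0.32) and CDK18 (-0.84), named after their values were seen. The Mediator kinase genes moved in opposite directions: CDK8 rose 1.84-fold (adjusted p = 2.79e-06) with its cyclin gene CCNC (1.57-fold, adjusted p = 6.81e-06), and CDK19 fell 3.06-fold (11.9 ± 1.57 against 36.4 ± 2.70 CPM, adjusted p = 1.47e-07).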

How the data were processed

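The authors deposited raw counts per Ensembl gene in 6 libraries. The submitters' processing notes name Trimmomatic, STAR, HTSeq and kallisto, without versions, and the build hg38; per the labels' protocols, the kit was NEBNext Ultra. Annotation release, strand setting and read filters: not given in the sources used here. Column names in the labels gave each library's group.

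All 20042 genes were given symbols by identifier; positions and exon lengths came from GENCODE release 29. Counts were tested in R 4.3.3 with edgeR 4.0.16: filterByExpr (minimum count 10, minimum total 15) kept 12440 genes, libraries were scaled by TMM (factors 0.972 to 1.02), and the two-sided quasi-likelihood F test had group as its only term, and p-values were adjusted by Benjamini-Hochberg over the 12440 genes, with 0.05 as the threshold. Intervals used an SE derived from the log2 fold change and F. The common biological coefficient of variation was 0.0656. Log2 CPM for correlations used a prior count of 2. Shares within a family used CPM per kilobase of merged exons and an exact permutation test. The tests were tried on simulated counts in which a small part of the genes changed, as many up as down. Most genes passed in the real data, so that trial does not speak for their setting.

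The members and gene lists were chosen with earlier results of these data known. Named genes were all members, 11 pathway genes whatever their result, the 3 smallest adjusted p values of each list and the genes most like each member, not all of which are printed. Alternatives were size factors or the Wald test of DESeq2 1.42.0, limma-voom (limma 3.58.1), unscaled libraries, no low-count filter or one at a mean of 100 counts, a replicate block, each library left out, and 0.01 as the threshold.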

Additional observations from a re-analysis of the deposited data

How the results depend on the processing

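Directions of all 10 genes were the same in every alternative run, and 8 genes, 6 of them called, also kept their side of the threshold. CDK4 did not: its log2 fold change was 0.17 with DESeq2 size factors (adjusted p = 0.0625), 0.14 at a mean of at least 100 counts (0.105), 0.17 by the DESeq2 Wald test (0.0751) and 0.18 at a threshold of 0.01 (0.0496), and 0.10 to 0.21 when a library was left out. It passed with no scaling beyond library size, no filter, limma-voom or the replicate block. CDKN1B ranged from 0.057 to 0.22 with a library left out, and passed without siCTRL 2. CCND2 was not tested at a mean of at least 100 counts, for want of counts. The share of CCND1 differed by -12.9 percentage points (-13.3 to -12.5 with a library left out), and by -14.5 from raw counts; that of CDK4 by 9.39 (8.56 to 9.98), and by 19.7 from raw counts, which weigh the long CDK6 transcript more; that of CCNE1 by 13.6 (12.6 to 14.5). Near 0, CDK1 (0.03) reversed to -0.0051 at a mean of at least 100 counts, -0.010 without siRNA-1 replicate 3 and -0.052 without siCTRL 1, and MGAT4B (-0.03) to 0.0032 with no scaling and 0.014 without siCTRL 3; without siCTRL 2 they were 0.13 and -0.12 and passed; the cause was not tested.

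Across all genes 6206 to 7939 passed in the alternatives other than leaving out a library, and 6848 to 8635 with a library left out. Libraries sharing a replicate number did not deviate together (correlations 0.067, -0.078 and -0.057 for numbers 1 to 3). Pairs with different numbers ranged from -0.095 to 0.115. No pairing was seen, but with 3 libraries per group these values cannot exclude one. With it as a replicate block 7535 genes passed in place of 7772, and the calls of all 10 genes were as without it. Depth limited CCND2 most, at 74 to 120 counts per library.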
